A study of Mus musculus with 12 samples.

Results

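Complement is a protein cascade of innate immunity, and the 8 genes described here encode its C1 complex, its central components C3 and C4, and the inhibitor of C1. C1q, built from the chains encoded by C1qa, C1qb and C1qc, recognises antibody or other surfaces, C1r and C1s are the serine proteases it carries, and C1s cleaves C4 on the way to cleavage of C3, where the classical, lectin and alternative routes meet. The C1 inhibitor, encoded by Serping1, is a serpin that inactivates C1r and C1s. Most plasma complement is made by the liver, but macrophages make C1q, and kidney cells transcribe C3, C4, C1r, C1s and the inhibitor. The genes C1qa, C1qb, C1qc, C1ra, C1s1, C3, C4b and Serping1 were found by exact gene symbol among the 14096 genes listed for every library, and all 8 were listed.

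Glomeruli, the filtering units of the kidney, were taken from 12 eNOS-/- males on the C57BL/6J background, in which the gene of endothelial nitric oxide synthase (Nos3) is deleted. Streptozotocin, a toxin of pancreatic beta cells, was injected at 8 weeks of age in daily doses of 50 mg/kg for 5 days to make mice diabetic, with citrate buffer alone as the nondiabetic control. Treatment started 10 weeks later and lasted 8 weeks, and consisted of a daily gavage of arctigenin (ATG), a plant lignan, at 40 mg/kg, or of its vehicle, 5% DMSO. This gave 4 groups of 3 mice: vehicle-treated nondiabetic, ATG-treated nondiabetic, vehicle-treated diabetic and ATG-treated diabetic. All 4 groups share the eNOS deletion and there is no wild-type library, so nothing here separates diabetes from diabetes on this background. The Nos3 row held 846 to 2703 reads in every library. Which part of the gene is deleted is not given in the sources used here, so the gene-level value does not check the genotype.

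The libraries held 23638052 to 29768857 reads in listed genes, and the correlation of log2 values between mice of a group was 0.972 to 0.994. The podocyte gene Nphs1, which encodes nephrin, was high in all mice (14.65 to 16.52 on the deposited log2 scale), and so was the endothelial gene Pecam1 (12.94 to 14.57). Kidney tubule genes were present too, with Slc34a1, a phosphate transporter of the proximal tubule, at 12.35 to 15.88, and the mean of 15 tubule markers was 13.25 to 13.74 in vehicle-treated nondiabetic, 13.87 to 14.49 in ATG-treated nondiabetic, 11.39 to 12.73 in vehicle-treated diabetic and 12.11 to 12.70 in ATG-treated diabetic mice. In such bulk samples, fewer cells of a type and less RNA per cell cannot be told apart. In the labels, 1 vehicle-treated and 1 ATG-treated nondiabetic mouse carry no number within their group, and these are called mouse 3 here. The first part of the sample labels differs between the groups, so any batch it stands for cannot be told apart from the group.

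The 8 genes lie at 4 places in the mouse genome (mm10, positions as in the deposited gene rows). C1qb (chr4:136880145-136886177), C1qc (chr4:136889802-136892914) and C1qa (chr4:136895916-136898844) sit side by side on the minus strand, separated by 3624 and 3001 bases. C1ra (chr6:124512621-124523440, plus strand) and C1s1 (chr6:124530344-124542359, minus strand) lie 6903 bases apart with their ends facing each other. C4b (chr17:34728381-34743897) and C3 (chr17:57203967-57228136), both on the minus strand, are far apart on chromosome 17, and Serping1 is at chr2:84765360-84775429 on the minus strand. C4b has a close copy, C4a, which was listed at 64 to 102 reads per mouse. Both rows held whole numbers of reads in every mouse, and how reads that match both were assigned is not given, so C4b values are uncertain. The C1s1 row held a whole number of reads in 1 of the 12 mice, against 12 of 12 for each of the other 7 genes, so some C1s1 reads were shared out among transcripts or genes in the counting.

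RefSeq sequence just before the transcription start (GRCm38.p6) was found for 5 of the 8 genes, and it is shown for the neighbours among them whose mRNAs moved together across mice, the C1q genes on one side and C1ra with C1s1 on the other. Each sequence is given 5′ to 3′ on the strand of its gene and leaves out any base that RefSeq or GENCODE places inside a transcript. Capitals mark GAGGAA, a purine-rich word bound by PU.1, a transcription factor of macrophages, in either direction.
C1qb, chr4:136886201-136886450, minus strand: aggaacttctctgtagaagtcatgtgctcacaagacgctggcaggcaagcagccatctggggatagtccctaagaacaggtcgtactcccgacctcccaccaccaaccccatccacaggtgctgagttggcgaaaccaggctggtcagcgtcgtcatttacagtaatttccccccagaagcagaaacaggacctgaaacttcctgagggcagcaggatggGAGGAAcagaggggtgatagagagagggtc
C1qc, chr4:136893066-136893164, minus strand: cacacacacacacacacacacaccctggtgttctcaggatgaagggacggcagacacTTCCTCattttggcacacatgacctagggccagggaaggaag
C1ra, chr6:124512371-124512404, plus strand: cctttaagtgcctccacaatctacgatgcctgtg
C1s1, chr6:124542393-124542609, minus strand: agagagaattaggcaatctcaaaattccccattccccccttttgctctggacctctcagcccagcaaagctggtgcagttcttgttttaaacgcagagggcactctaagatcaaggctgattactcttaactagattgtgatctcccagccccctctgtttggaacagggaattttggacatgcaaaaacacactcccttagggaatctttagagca

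Over the 250 bases before the start, GAGGAA was found 30 to 25 bases before the start of C1qb on the gene's strand and 193 to 188 bases before that of C1qc on the opposite strand. For C1qb the distance is from the RefSeq start, which lies upstream of the position in the deposited row. It was found in 23.3% of all 32851 mouse windows of that length, on either strand. The NF-kB consensus (in 7.25% of windows) was found before C1qc, 41 to 32 bases from the start, in sequence that GENCODE counts as transcribed. None of the 5 motifs searched, the others being TTCNNNGAA, TATAAA and CCAAT, was in the windows of C1ra, C1s1 or C3. A match is a description of the letters and no site of binding.

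Compared per length of transcript, Serping1 was the highest of the 8 genes, with 1037 ± 240.9 normalised reads per kb (mean ± SD, n = 12), and C4b the lowest, with 47.0 ± 17.1. Between them came C1s1 (555.8 ± 131.4), C1qb (454.5 ± 195.6), C1qa (391.2 ± 164.7), C1qc (336.4 ± 148.7), C3 (209.3 ± 59.0) and C1ra (183.9 ± 42.9). Within a mouse, Serping1 was above C1s1 in 12 of 12 mice, C1qb above C1qa in 12, C1qa above C1qc in 11, C1qc above C3 in 12 and C1ra above C4b in 12. The order of C1s1 and C1qb held in 7 of 12 mice, 1 or 2 in each group, so these neighbours did not differ beyond their spread. C3 was above C1ra in 8 of 12 mice, and this order followed the group: it held in 6 of 6 nondiabetic, 2 of 3 vehicle-treated diabetic and 0 of 3 ATG-treated diabetic mice. On the per-length scale the chains of C1q stayed close to each other, with C1qb above C1qa by 0.03 to 0.46 in log2 in every mouse. C1s1 exceeded C1ra by 1.47 to 1.89 in log2 in every mouse.

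**Figure D1:**
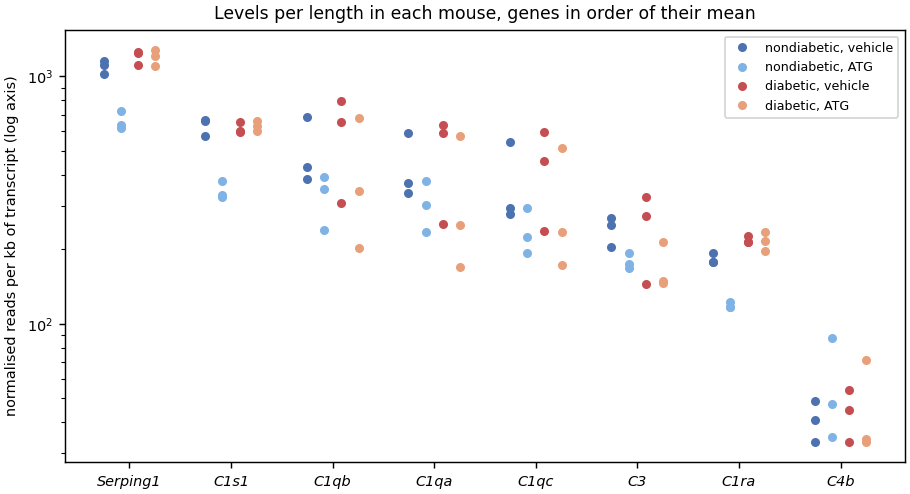
Normalised reads per kb of transcript (log axis) for each of the 8 complement genes, 1 point per mouse, coloured by group, genes in order of their mean over 12 mice. Serping1 leads at 1037 on average and C4b is last at 47.0, and the ATG-treated nondiabetic mice lie below the other groups in Serping1, C1s1 and C1ra.

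The genes of the proteases C1r and C1s and of their inhibitor had one pattern in common: they were low in the ATG-treated nondiabetic mice and similar in the other 3 groups. In log2 of normalised reads (log2 of reads scaled to a common library size), C1s1 was 10.70, 10.91 and 10.92 in vehicle-treated nondiabetic mice 1, 2 and 3 and 10.10, 9.91 and 9.89 in ATG-treated nondiabetic mice. It was 10.89, 10.75 and 10.77 in vehicle-treated diabetic and 10.90, 10.77 and 10.85 in ATG-treated diabetic mice. Every ATG-treated nondiabetic mouse was thus below every mouse of the other groups, which overlapped among themselves. Serping1 was 10.86, 10.98 and 11.04 in vehicle-treated and 10.17, 10.36 and 10.14 in ATG-treated nondiabetic mice, with no overlap. In diabetic mice Serping1 was 11.14, 11.15 and 10.98 under vehicle and 11.19, 10.97 and 11.10 under ATG. The C1 inhibitor mRNA therefore showed the same separation as C1s1. C1ra was 8.93, 8.94 and 9.05 in vehicle-treated nondiabetic mice, 8.41, 8.34 and 8.33 in ATG-treated nondiabetic mice, 9.28, 9.21 and 9.21 in vehicle-treated diabetic mice and 9.35, 9.09 and 9.22 in ATG-treated diabetic mice. For C1ra the vehicle-treated nondiabetic mice also lay below both diabetic groups, by a small margin.

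**Figure D2:**
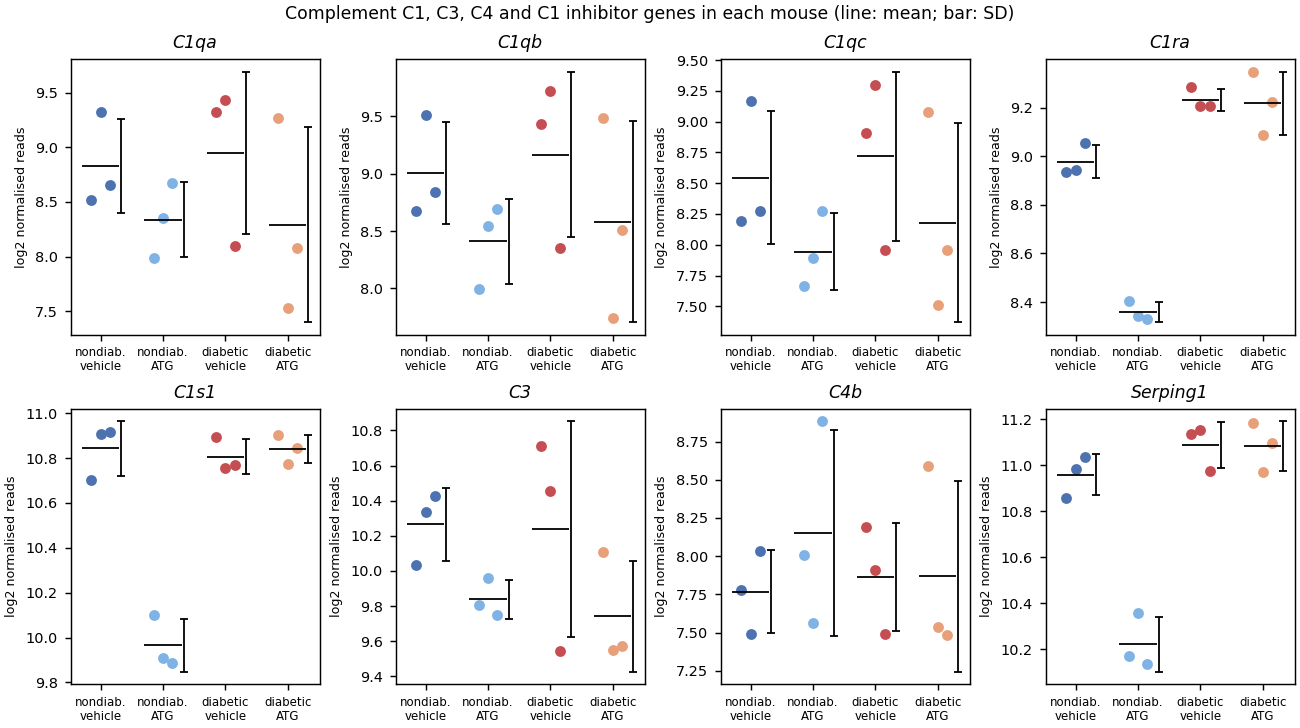
Log2 normalised reads of each of the 8 genes in the 4 groups, 1 point per mouse, with the group mean as a line and the SD (n = 3) as a bar. C1ra, C1s1 and Serping1 are low in all 3 ATG-treated nondiabetic mice with small SDs (0.04 to 0.12), whereas the C1q genes spread over more than a log2 unit within both diabetic groups.

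The comparison of ATG with vehicle in nondiabetic mice asked what the compound did without diabetes. C1s1 fell by 0.88 on the log2 scale (SE 0.08), a 1.84-fold decrease, with an adjusted p of 0.00189 by limma (Benjamini-Hochberg over all 14096 genes). Serping1 fell by 0.74 (SE 0.09, adjusted p = 0.00376 by limma) and C1ra by 0.62 (SE 0.08, adjusted p = 0.00548 by limma). So 3 of the 8 genes passed lower and none higher, where 4.51% of all genes passed lower and 0.709% higher. The median log2 fold change was -0.60 over the 8 genes and -0.04 over all genes. C3, the central component, was 10.03, 10.34 and 10.43 under vehicle and 9.81, 9.96 and 9.75 under ATG, without overlap, but its difference of -0.43 (95% confidence interval -0.996 to 0.143) did not pass (adjusted p = 0.273 by limma). Of the 8 genes, 4 had groups that did not overlap, all of them lower under ATG, where 20% of all genes were lower without overlap. With 3 mice against 3, the two-sided exact permutation test cannot give a p below 0.1, which was the value for these 4 genes. Fitted with the nondiabetic mice alone, C1s1, Serping1 and C1ra kept the same log2 fold changes. Their adjusted p-values were 0.0517, 0.0517 and 0.0776 by limma and none passed, where 0 of all 14096 genes (0%) passed in that fit. Without both unnumbered nondiabetic mice, C1s1 (-0.80) still passed, while Serping1 (-0.66, adjusted p = 0.0627) and C1ra (-0.57, adjusted p = 0.0842) did not, by the same test. In that fit 8 of all 14096 genes (0.0568%) passed.

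The mesangial cell markers moved with C1ra, C1s1 and Serping1 in this comparison. Of 8 such markers, 6 passed lower under ATG in nondiabetic mice, and their mean log2 level was 11.63, 11.96 and 12.08 under vehicle against 11.17, 11.12 and 10.83 under ATG. In diabetic mice the mean was 11.63, 11.49 and 11.74 under vehicle and 11.62, 11.85 and 11.67 under ATG. The summed level of the list was 14.86 to 15.33 and 13.96 to 14.36 in log2 in the nondiabetic groups, and no marker of it was at 0. Of 10 endothelial markers 5 passed lower, with a median log2 fold change of -0.62. In the other lists named here no marker passed, and the median log2 fold change was -0.62 for 10 podocyte markers, -0.50 for 14 macrophage markers, -0.49 for 5 fibroblast markers and 0.69 for 15 tubule markers. With the mesangial mean as a covariate, an alternative added after seeing the data, the log2 fold changes under ATG in nondiabetic mice were -0.61 for C1s1, -0.68 for Serping1 and -0.60 for C1ra. None of the 3 passed (adjusted p of 1.0 for each by limma), where 0 of all 14096 genes (0%) passed in that fit. With the tubule mean as a covariate, all 3 genes passed in that comparison (adjusted p = 0.00972 for C1s1, 0.0145 for Serping1 and 0.0291 for C1ra by limma), where 0.426% of all genes passed. With the macrophage mean, C1s1 (-0.81, adjusted p = 0.0267) and Serping1 (-0.59, adjusted p = 0.0438) passed and C1ra (-0.54, adjusted p = 0.0675) did not, where 0.333% of all genes passed. The part of cell makeup in the result was not tested.

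Diabetes was compared with no diabetes separately under ATG and under vehicle, and the ATG comparison uses the same ATG-treated nondiabetic mice as the comparison above. Under ATG, C1s1 was higher in diabetic mice by 0.88 in log2 (SE 0.08, 1.83-fold), C1ra by 0.86 (SE 0.08, 1.81-fold) and Serping1 by 0.86 (SE 0.09, 1.82-fold). The adjusted p-values were 9.54e-05, 9.54e-05 and 0.000116 by limma. These 3 of 8 genes passed higher and none lower, and 25.9% of all genes passed higher in this comparison, so the count is near what the genes as a whole gave. Of the cell type markers, 10 of 10 endothelial (median 1.05) and 6 of 8 mesangial markers (median 0.72) passed higher and 13 of 15 tubule markers (median -1.78) passed lower, and their part in the result was not tested. With the mesangial mean as a covariate the log2 fold changes were 0.67 for C1s1, 0.85 for C1ra and 0.82 for Serping1, and none of the 3 passed (adjusted p = 0.121, 0.0875 and 0.116 by limma).

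Under vehicle, C1ra was the only one of the 8 genes to pass, where 10.2% of all genes passed higher and 8.63% lower. C1ra was higher in diabetic mice by 0.25 (SE 0.08, a 19.3% increase), with an adjusted p of 0.0493 by limma, just under the threshold of 0.05. It did not pass when any 1 of the 6 vehicle-treated mice, ATG-treated nondiabetic mouse 1 or ATG-treated diabetic mouse 3 was left out, with adjusted p-values up to 0.15 by limma. C1s1 differed by -0.04 (95% confidence interval -0.22 to 0.14) and Serping1 by 0.13 (-0.06 to 0.32). For both genes the interval leaves out changes as large as those seen under ATG. Of the cell type markers, 11 of 15 tubule markers (median -1.50) passed lower with diabetes under vehicle. There 4 of 10 endothelial (median 0.40) and 2 of 3 red cell markers (median 1.65) passed higher and 0 of 8 mesangial markers passed. Their part in the result was not tested.

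In diabetic mice ATG and vehicle were compared to ask whether ATG alters glomeruli once diabetes is established. None of the 8 genes passed by limma, and 0 of them had an unadjusted p under 0.05. Of all 14096 genes 0 passed (0%), by limma and by limma-voom, with 636 genes (4.51%) and 670 genes at an unadjusted p under 0.05. For 0 of the 8 genes were the groups without overlap, against 10.2% of all genes. For C1ra, C1s1 and Serping1 the log2 differences were -0.01 (95% confidence interval -0.19 to 0.16), 0.04 (-0.15 to 0.22) and -0.01 (-0.19 to 0.18). The ATG effects in diabetic and nondiabetic mice were then compared directly, as an interaction in the same fit. This difference was 0.91 for C1s1 (SE 0.12, adjusted p = 0.0126 by limma), 0.73 for Serping1 (SE 0.12, adjusted p = 0.0443) and 0.61 for C1ra (SE 0.11, adjusted p = 0.0493). So 3 of 8 genes passed, all in the positive direction, where 0.539% of all genes passed in that direction and 0.00709% in the other. Leaving out 1 mouse at a time, C1s1 passed in 9 of 12 fits, not passing without vehicle-treated nondiabetic mouse 2 or 3 or ATG-treated diabetic mouse 3 (adjusted p up to 0.0662). Serping1 passed in 3 of 12 such fits, those without vehicle-treated nondiabetic mouse 1, ATG-treated nondiabetic mouse 2 or vehicle-treated diabetic mouse 3. C1ra passed in 1, the fit without ATG-treated nondiabetic mouse 2. Without both unnumbered mice none of the 3 passed (adjusted p = 0.125 for C1s1, 0.187 for Serping1 and 0.242 for C1ra). Of 8 mesangial markers, 2 passed in this comparison and 6 did not, with a median difference of 0.96. Those that passed were Itga8 and Pdgfrb, singled out after their values were seen, with differences of 1.34 and 1.03.

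**Figure D3:**
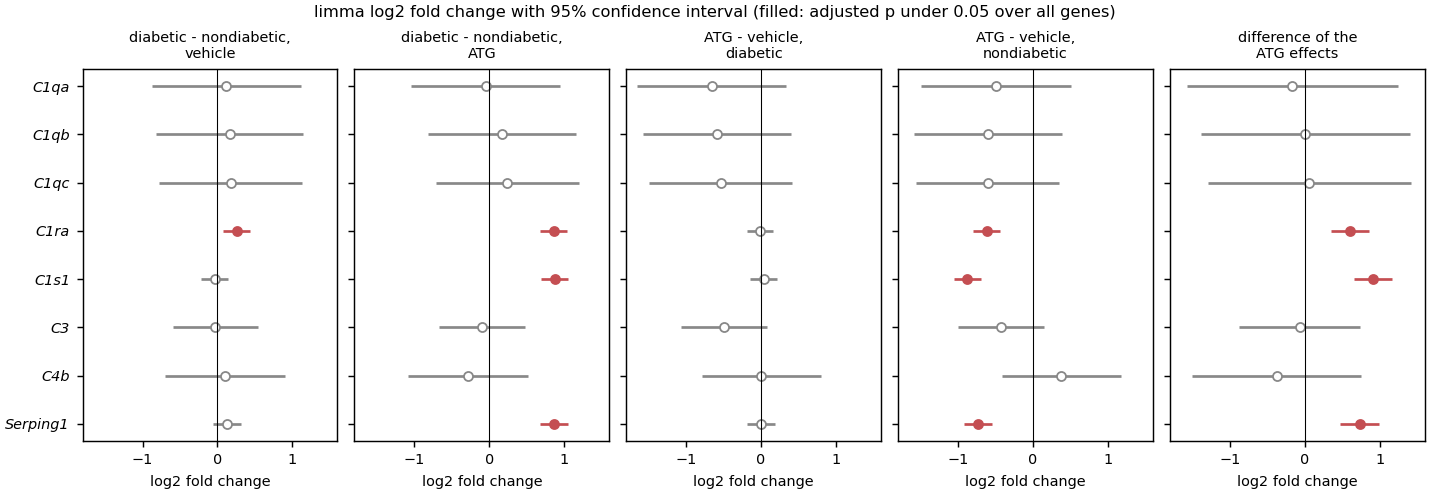
Log2 fold change (x axis) of each of the 8 genes in the 5 comparisons, with its 95% confidence interval from limma, filled red where the adjusted p over all genes was under 0.05. C1ra, C1s1 and Serping1 have short intervals and pass in ATG-treated against vehicle-treated nondiabetic mice, in diabetes under ATG and in the difference of the ATG effects, whereas the intervals of the C1q genes, C3 and C4b cross 0 throughout.

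The C1q genes did not separate the groups, and their SD within a group was 0.31 to 0.89 in log2, against 0.04 to 0.13 for C1ra, C1s1 and Serping1. C1qb was 8.67, 9.51 and 8.84 in vehicle-treated nondiabetic and 7.99, 8.54 and 8.70 in ATG-treated nondiabetic mice. It was 9.43, 9.72 and 8.35 in vehicle-treated diabetic and 9.49, 7.74 and 8.51 in ATG-treated diabetic mice. All groups overlapped, and each group except the ATG-treated nondiabetic one held a mouse at 9.43 or above. C1qa was 8.52, 9.32 and 8.65, then 7.99, 8.36 and 8.67 in the nondiabetic groups, and 9.32, 9.43 and 8.10, then 9.27, 7.53 and 8.08 in the diabetic groups, in the same order. C1qc ran from 7.51 to 9.30 with its highest and lowest mice the same as for C1qb. In all 3 genes vehicle-treated diabetic mouse 3 and ATG-treated diabetic mice 2 and 3 were below the other diabetic mice, by 0.925 to 1.17 in log2.

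No C1q gene passed in any of the 5 comparisons. Under ATG the differences were -0.49 to -0.60 in nondiabetic and -0.54 to -0.66 in diabetic mice, negative for all 3 genes in both. With 1 mouse left out, the values in diabetic mice ran from -1.15 (C1qa, without ATG-treated diabetic mouse 1) to -0.17 (C1qb, without ATG-treated diabetic mouse 2), and without vehicle-treated diabetic mouse 3, C1qa was at -1.09. In nondiabetic mice they ran from -0.78 (C1qc, without vehicle-treated nondiabetic mouse 1) to -0.25 (C1qa, without vehicle-treated nondiabetic mouse 2). Their SEs were 0.43 to 0.45, and the 95% confidence interval for C1qa in diabetic mice ran from -1.66 to 0.34, so it held both 0 and -1. Diabetes gave differences of 0.12 to 0.18 under vehicle and -0.05 to 0.24 under ATG, again with intervals of about 1 log2 unit to either side.

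Across the 12 mice the 3 C1q genes kept almost the same order, with Pearson r of 0.973 to 0.984 for each pair. Those mice share 4 group means, and after these were subtracted r was 0.978 to 0.990. Outside the 8 genes, the 5 genes whose log2 values followed the C1q mean most closely were H2-Eb1 (r = 0.980 over 12 mice), Cd74 (0.957), Adgre1 (0.95), H2-Ab1 (0.939) and H2-Aa (0.933). H2-Aa, H2-Ab1 and H2-Eb1 encode MHC class II chains, Cd74 their invariant chain, and Adgre1 the macrophage surface protein F4/80. With group means subtracted their r was 0.941 to 0.983. Adgre1 was 8.63, 8.72 and 8.11 in vehicle-treated diabetic and 8.70, 7.36 and 7.91 in ATG-treated diabetic mice, low in the same mice as C1q.

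Not every macrophage gene followed C1q. Lyz2, the lysozyme of macrophages and neutrophils, was 12.30, 11.69 and 11.83 in vehicle-treated diabetic mice against 10.03, 11.07 and 10.55 in vehicle-treated nondiabetic mice, and passed higher (1.39, SE 0.30, adjusted p = 0.0128 by limma). Of 14 macrophage markers, 2 passed higher with diabetes under vehicle (10.2% of all genes did) and 7 under ATG (25.9% of all genes did), none lower, and none passed in the other comparisons. The mean of the 14 markers was 8.46, 8.95 and 8.59 in vehicle-treated nondiabetic, 7.97, 8.25 and 8.27 in ATG-treated nondiabetic, 9.30, 9.20 and 8.89 in vehicle-treated diabetic and 9.07, 8.41 and 8.74 in ATG-treated diabetic mice. No marker of the list was at 0. The C1q mean lay within 0.39 log2 units of it in all 6 nondiabetic mice. In vehicle-treated diabetic mice 1, 2 and 3 it differed from it by -0.075, 0.28 and -0.75, and in ATG-treated diabetic mice by 0.21, -0.82 and -0.55, so 3 of the 6 diabetic mice lay well below it and 2 above. With the macrophage mean as a covariate, C1qa, C1qb and C1qc passed lower with diabetes under ATG (-1.45, -1.24 and -1.08, with adjusted p of 0.00841, 0.0108 and 0.0236 by limma), and under vehicle the values were -1.02, -0.98 and -0.89 (adjusted p = 0.0626, 0.0578 and 0.0914). The part of macrophage number in the C1q levels was not tested.

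**Figure D4:**
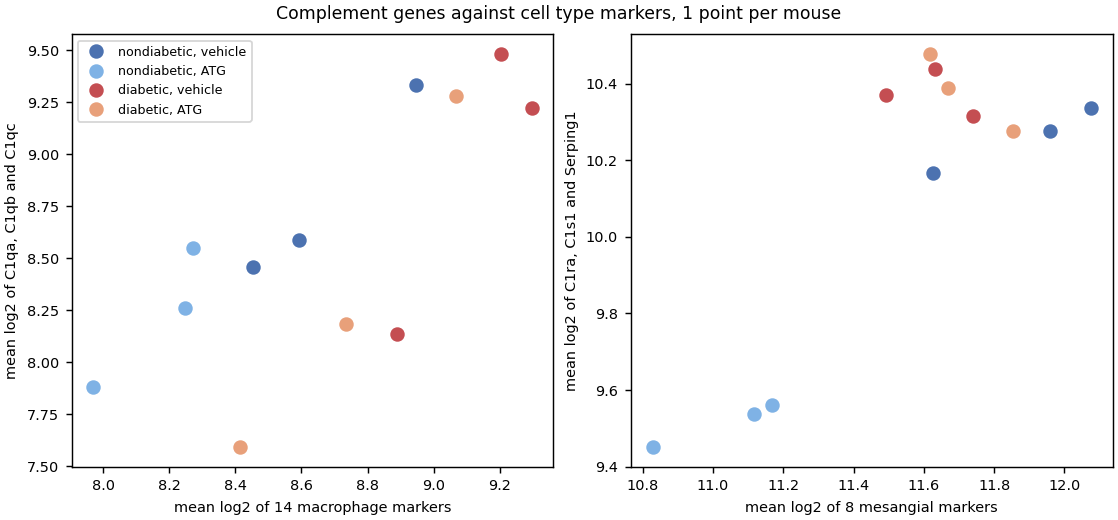
Left, the mean log2 of C1qa, C1qb and C1qc against the mean log2 of 14 macrophage markers; right, the mean log2 of C1ra, C1s1 and Serping1 against the mean log2 of 8 mesangial markers, 1 point per mouse, coloured by group. On the right the 3 ATG-treated nondiabetic mice lie apart at low values of both, and on the left 3 diabetic mice have a C1q mean of 7.59 to 8.18 with a macrophage mean of 8.41 to 8.89, inside the range of the nondiabetic mice (7.97 to 8.95).

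C1ra, C1s1 and Serping1 followed each other across all mice more closely than they did the C1q genes. Their Pearson r over the 12 mice was 0.971 for C1ra with Serping1, 0.957 for C1s1 with Serping1 and 0.941 for C1ra with C1s1, and 0.586, 0.402 and 0.686 with group means subtracted. The correlations were thus lower once the group means, among them the low ATG-treated nondiabetic mean, were taken out. Their r with the C1q genes was 0.287 to 0.492. With group means subtracted, Serping1 had r of 0.654, 0.704 and 0.592 with C1qa, C1qb and C1qc and 0.775 with C3, all above its 0.402 with C1s1. Within a mouse the log2 value of Serping1 exceeded the mean of C1ra and C1s1 by 0.92 to 1.23, and the group means of this difference were 1.05, 1.06, 1.07 and 1.05 in the order of the groups given above. The proteases did not keep 1 ratio to each other: per length, C1s1 exceeded C1ra by 1.69 to 1.89 in vehicle-treated nondiabetic mice and by 1.47 to 1.62 in the other 3 groups, without overlap. Serping1 exceeded C1s1 per length by 0.79 on average in vehicle-treated nondiabetic mice and by 0.92 to 0.96 in the other groups. The genes most like C1s1 were Col6a3 (r = 0.989), Flna, Lrp1, Arhgef25 and Cp, those most like C1ra were Abcb1a (0.988), Scarf2, Serpine2, Col8a1 and Cd248, and those most like Serping1 were Bgn (0.981), Abcb1a, Scarf2, Ecm1 and Loxl3. Col6a3 and Col8a1 encode collagen chains and Bgn the matrix proteoglycan biglycan. With group means subtracted, the r of these genes ranged from 0.270 to 0.821.

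C3, whose levels followed the C1q genes in part, did not pass in any comparison. C3 was 10.71, 10.45 and 9.54 in vehicle-treated diabetic and 10.11, 9.55 and 9.57 in ATG-treated diabetic mice, so the groups overlapped through vehicle-treated diabetic mouse 3. The difference under ATG in diabetic mice was -0.50 (95% confidence interval -1.07 to 0.08, unadjusted p = 0.0823 and adjusted p = 1.0 by limma). It was -0.84 without vehicle-treated diabetic mouse 3 and -0.26 without vehicle-treated diabetic mouse 1. With diabetes C3 differed by -0.03 (-0.60 to 0.54) under vehicle and by -0.10 (-0.67 to 0.47) under ATG. Across mice its r with the C1q genes was 0.765 to 0.836, and 0.719 to 0.788 with group means subtracted. The gene most like it was Mmp12 (r = 0.889), macrophage elastase, followed by Stx8, Gsk3a, D830030K20Rik and Aoc1. With group means subtracted, r was 0.818 for Mmp12 and ran from 0.782 to 0.985 over these genes, highest for Stx8.

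C4b, with 167 to 371 reads per mouse, was 7.78, 7.49 and 8.03 in vehicle-treated nondiabetic and 8.01, 7.56 and 8.88 in ATG-treated nondiabetic mice. It was 8.19, 7.91 and 7.49 in vehicle-treated diabetic and 8.59, 7.53 and 7.49 in ATG-treated diabetic mice. Single mice, ATG-treated nondiabetic mouse 3 and ATG-treated diabetic mouse 1, were the highest, and all groups overlapped. Its differences were between -0.28 and 0.38 in the 4 comparisons of groups, with SEs of 0.36, and none passed. The difference of 0.38 under ATG in nondiabetic mice was between 0.02 and 0.68 when 1 mouse at a time was left out. The genes most like C4b were 1810032O08Rik (r = 0.918), Unc119, Entpd2, Pmm1 and Tbca. With group means subtracted their r was 0.856 to 0.930.

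Other genes of the pathway were taken from a list of 47, of which 25 were listed in the files. With diabetes under vehicle, 2 of the 25 passed higher and 0 lower, where 10.2% of all genes passed higher and 8.63% lower, so the count is near that of all genes. They were Itgb2 (0.82, SE 0.15, adjusted p = 0.00686 by limma) and Itgam (0.82, SE 0.21, adjusted p = 0.0243), the chains of complement receptor CR3, which binds cleaved C3. Itgb2 was 8.16, 8.50 and 8.43 in vehicle-treated nondiabetic and 9.38, 9.07 and 9.11 in vehicle-treated diabetic mice, without overlap. Both are leukocyte integrins, and 2 of 14 macrophage markers passed higher in the same comparison. The median log2 fold change of the 25 genes was 0.01, as it was for all genes (0.01).

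With diabetes under ATG, 6 of the 25 passed higher and 5 lower, where 25.9% of all genes passed higher and 20.8% lower. The higher ones, in order of p among the 10 with the lowest p, were Cd93 (0.84), Itgb2 (0.66), Itgam (0.85), Cd55 (0.84), Cd59a (0.47) and Cr1l (0.26). Cd55 and Cd59a encode surface proteins that limit C3 convertases and the membrane attack complex, and Cr1l a rodent regulator of C3. Among the lower ones were Cr2 (-0.85), the receptor CR2, C8g (-1.29), a chain of C8, Cfb (-1.05), factor B of the alternative route, and C2 (-1.15), the protease partner of C4. Of 15 tubule markers, 13 passed lower in this comparison. With the tubule mean as a covariate, Cr2 alone of these 11 genes passed (-1.26), while Cd93 was at 0.79, Itgam at 0.66, Itgb2 at 0.43, C8g at -0.25, Cfb at -0.008, C2 at 0.38, Cd55 at -0.09, Cd59a at -0.06, Cr1l at -0.12 and Clu, the 11th by p, at 0.58 against -0.89 without the covariate. Their SEs were 0.14 to 0.43 in that fit, and the part of tubule content was not tested. Cfb was 10.99, 10.68 and 11.21 in vehicle-treated nondiabetic, 12.04, 11.40 and 11.63 in ATG-treated nondiabetic, 10.88, 10.78 and 10.16 in vehicle-treated diabetic and 10.76, 10.66 and 10.50 in ATG-treated diabetic mice. The ATG-treated nondiabetic mice were thus the highest in Cfb and the lowest in C1ra, C1s1 and Serping1.

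None of the 25 genes passed in the remaining 3 comparisons, by limma or limma-voom with adjustment over all genes, and the numbers at an unadjusted p under 0.05 were near the shares of all genes: 7 for ATG in nondiabetic mice (30.2% of all genes), 2 for ATG in diabetic mice (4.51%) and 3 in the difference (12.9%). For ATG in nondiabetic mice the count rests on single mice, with 6 of the 25 passing without ATG-treated nondiabetic mouse 2 (25.0% of all genes passed in that fit) and 1 without ATG-treated nondiabetic mouse 3 (1.5% of all genes) or vehicle-treated diabetic mouse 3 (10.1%), and it was 3 with the replicate block (6.71%). Cfb differed by 0.73 (SE 0.21, adjusted p = 0.0657) under ATG in nondiabetic mice, and the receptor chain Itgb2 by -0.65 (SE 0.15, unadjusted p = 0.0011, adjusted p = 0.804) under ATG in diabetic mice.

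**Figure D5:**
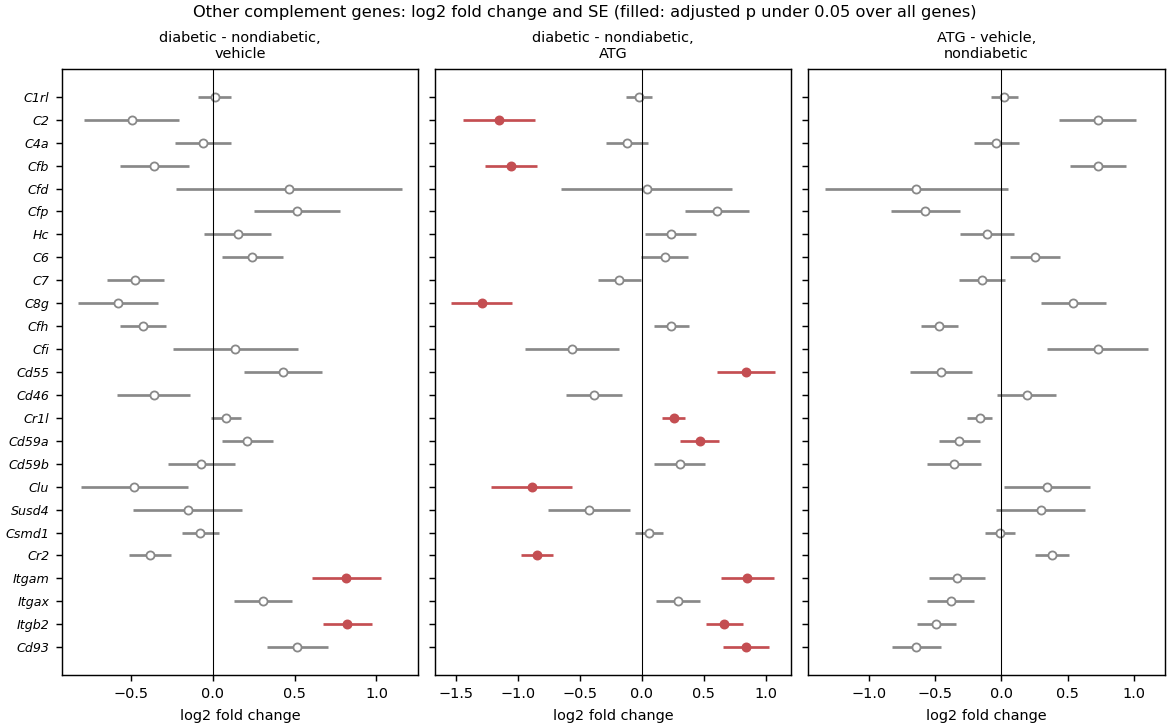
Log2 fold change with its SE for 25 other complement genes in 3 comparisons, filled red where the adjusted p by limma over all genes was under 0.05. With diabetes under vehicle only Itgam and Itgb2 pass, under ATG 6 genes pass higher and 5 lower, and for ATG in nondiabetic mice none passes.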

How the data were processed

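Total RNA of glomeruli was sequenced after poly-A selection. The labels also describe dissociation and sorting of fluorescent cells, which the study's sequencing methods do not mention. The authors deposited 1 file per mouse with log2 values, in which reads were multiplied by 1 factor per library, with no division by length. The labels name mm10 and limma, and the aligner and counter are not given in the sources used here. Below 2000 reads, 83.4% to 83.9% of values were whole reads within 0.02 of a read, and read numbers in the text were recovered from these steps. The log2 values of 14096 genes were fitted with limma 3.58.1 (trend in the prior variance, R 4.3.3) for all 12 mice in 4 groups, with Benjamini-Hochberg adjustment over all genes and a threshold of 0.05. Single values were also tested by two-sided exact permutation. The fit was tested on simulated data. Levels between genes were divided by transcript length. Intervals and p-values measure the spread between mice of a group, 1 library each. Named genes were the 8 members, pathway genes that passed (the 10 with the lowest p in a comparison), the 5 genes with the highest r, and defining markers. The members, gene lists and rules were chosen with earlier results of these data known. Positions are the deposited starts plus 1, since the deposited starts count from 0. Promoters were read from RefSeq tables and trimmed with GENCODE M21. Figures were drawn with matplotlib 3.10.9. Alternatives were fits with the groups compared only, a replicate block, single mice left out, both unnumbered mice left out, a minimum of 10 on the linear scale, median-ratio scaling, limma-voom on recovered reads, a prior without a trend, and tubule, macrophage or, added after seeing the data, mesangial marker means as covariates.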

Additional observations from a re-analysis of the deposited data

Results flagged for a closer look

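The effect of ATG differed between diabetic and nondiabetic mice for 3 of the 8 genes, by a test of the difference itself. The log2 fold change under ATG in diabetic minus that in nondiabetic mice was 0.91 for C1s1, 0.73 for Serping1 and 0.61 for C1ra, with adjusted p-values of 0.0126, 0.0443 and 0.0493 by limma over all genes. The calls were often lost: C1s1 passed in 15 of 21 alternatives, Serping1 in 8 and C1ra in 3, and none passed with the replicate block, without both unnumbered mice or with the mesangial covariate. In these 3 fits the difference was 0.91, 0.83 and 0.62 for C1s1, 0.73, 0.65 and 0.67 for Serping1, and 0.61, 0.55 and 0.59 for C1ra. C1ra also missed the threshold with median-ratio scaling (0.58, adjusted p = 0.0685 by limma) and with the tubule (0.61, adjusted p = 0.0648) or macrophage covariate (0.59, adjusted p = 0.0632), at a difference close to its 0.61. In nondiabetic mice all 3 ATG-treated mice were below all 3 vehicle-treated mice for each gene, and in diabetic mice the groups overlapped. The mesangial marker mean was low in the same ATG-treated nondiabetic mice, and its part in the difference was not tested.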

How the results depend on the processing

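Of 872 single-gene values under alternatives, 714 kept direction and call, 64 lost the call, 1 gained it in the same direction and 93 changed sign, 2 of which also gained the call (C1qb and C1qc, with diabetes under ATG and the macrophage covariate); the sign changes all concern values that had not passed, and their cause was not tested. SEs of 0.26 to 0.45 in single comparisons limit what can be said of the C1q genes, C3 and C4b, against 0.08 to 0.09 for C1ra, C1s1 and Serping1. Shares of all genes passing in the alternative fits are given only for ATG in nondiabetic mice, so the other counts below are no result about the members.

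Whether the numbers in the labels pair the mice was not settled: over 13 pairs of same-numbered mice, the correlation of deviations ran from -0.59 to 0.34. It was above 0.1 in 5 pairs, and differently numbered mice were not compared, so this range cannot exclude a pairing. The replicate block used these numbers, and the unnumbered nondiabetic mice formed a level apart from the diabetic mice numbered 3. The average difference between diabetic and nondiabetic mice therefore rests in that fit on the mice numbered 1 and 2. With the block, 0 of the 8 genes passed with diabetes under vehicle (C1ra at 0.27, adjusted p = 0.0916 by limma) and 0 in the difference of the ATG effects. Of the other complement genes, 7 passed with diabetes under ATG and 3 under ATG in nondiabetic mice (6.71% of all genes). Under the block the sign changed for C3 with diabetes under vehicle (0.21), and with diabetes under ATG for C1qa (0.26), C3 (0.14) and C4b (0.16).

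Fitted with the groups compared only, 0 of the 8 genes passed with diabetes under vehicle and 0 under ATG in nondiabetic mice, where 0 of all 14096 genes (0%) passed. The log2 fold changes were those of the main fit, and 4 other complement genes passed with diabetes under vehicle. Without both unnumbered mice, 0 passed with diabetes under vehicle (C1ra at 0.29), 1 under ATG in nondiabetic mice (0.0568% of all genes) and 0 in the difference of the ATG effects. Signs changed for C1s1 (0.001) and C3 (0.054) with diabetes under vehicle, C1qa (0.12) and C4b (0.086) with diabetes under ATG, and C1qa (0.091) in the difference. With median-ratio scaling 0 passed with diabetes under vehicle (C1ra at 0.24), and C1ra (0.006) and Serping1 (0.014) under ATG in diabetic mice and C1qb (-0.017) in the difference changed sign. Without a trend in the prior variance 1 gene passed in the difference.

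With the tubule mean as covariate, 0 of the 8 genes (C1ra at 0.28, adjusted p = 0.26 by limma) and 0 other complement genes passed with diabetes under vehicle. With diabetes under ATG 1 other complement gene passed. Signs changed for C3 with diabetes under vehicle (0.65), C1qa (0.72), C3 (0.74) and C4b (0.63) with diabetes under ATG, C4b (-0.16) under ATG in diabetic mice and C3 (0.092) in the difference.

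With the macrophage mean as covariate, 0 of the 8 genes (C1ra at 0.18, adjusted p = 0.322 by limma) and 0 other complement genes passed with diabetes under vehicle, and 6 of the 8 and 4 others with diabetes under ATG. Of these 6, C1qa, C1qb and C1qc passed lower and C1ra, C1s1 and Serping1 higher. Without the covariate 25.9% of all genes passed higher and 20.8% lower with diabetes under ATG. Signs changed with diabetes under vehicle for C1qa (-1.02), C1qb (-0.98), C1qc (-0.89), C4b (-0.33) and Serping1 (-0.007), and with diabetes under ATG for C1qb (-1.24) and C1qc (-1.08). They also changed under ATG in diabetic mice for C1qa (0.29), C1qb (0.37), C1qc (0.35), C1ra (0.048) and Serping1 (0.11), under ATG in nondiabetic mice for C1qa (0.73), C1qb (0.63), C1qc (0.55) and C3 (0.093), and in the difference for C1qb (-0.26) and C1qc (-0.19).

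With the mesangial mean as covariate, chosen after seeing the data, 0 of the 8 genes passed with diabetes under vehicle, 0 with diabetes under ATG, 0 under ATG in nondiabetic mice and 0 in the difference, and 0 other complement genes passed with diabetes under ATG. Under ATG in nondiabetic mice 0 of all 14096 genes (0%) passed in that fit. The values that had passed kept their direction: C1ra was 0.26 with diabetes under vehicle, C1s1, Serping1 and C1ra were 0.67, 0.82 and 0.85 with diabetes under ATG, -0.61, -0.68 and -0.60 under ATG in nondiabetic mice, and 0.62, 0.67 and 0.59 in the difference. Signs changed with diabetes under vehicle for C1qa (-0.31), C1qb (-0.26), C1qc (-0.22), C1s1 (0.045) and C4b (-0.28), with diabetes under ATG for C1qa (1.04), C3 (0.013) and C4b (0.68), under ATG in nondiabetic mice for C4b (-0.82), and in the difference for C1qa (1.34), C3 (0.083) and C4b (0.96).

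When 1 mouse at a time was left out, 0 to 1 of the 8 genes passed with diabetes under vehicle, 3 in every fit with diabetes under ATG and under ATG in nondiabetic mice, and 0 to 3 in the difference. Under ATG in nondiabetic mice 0.426% to 25.0% of all genes passed in these fits. Of the other complement genes, 1 to 4 passed with diabetes under vehicle (1 without vehicle-treated nondiabetic mouse 1 or 3 or vehicle-treated diabetic mouse 1, and 4 without ATG-treated nondiabetic mouse 3), 8 to 12 with diabetes under ATG and 0 to 6 under ATG in nondiabetic mice, 6 being the count without ATG-treated nondiabetic mouse 2. Log2 values whose sign changed among these fits ranged, with diabetes under vehicle, from -0.12 to 0.55 for C1qa, -0.11 to 0.57 for C1qb, -0.11 to 0.56 for C1qc, -0.11 to 0.001 for C1s1, -0.27 to 0.32 for C3 and -0.066 to 0.28 for C4b. With diabetes under ATG they ranged from -0.54 to 0.34 for C1qa, -0.28 to 0.59 for C1qb, -0.21 to 0.57 for C1qc, -0.28 to 0.001 for C3 and -0.64 to 0.086 for C4b. Under ATG in diabetic mice they were -0.078 to 0.052 for C1ra, -0.36 to 0.20 for C4b and -0.062 to 0.052 for Serping1. In the difference they were -0.66 to 0.22 for C1qa, -0.44 to 0.43 for C1qb, -0.39 to 0.40 for C1qc and -0.42 to 0.17 for C3.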
